A study of Mus musculus with 10 samples.

Results

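Amacrine cells, the interneurons of the inner retina, were examined through 8 genes of inhibitory transmission and cell identity in mouse neuroretina injected with carbon nitride nanoparticles or with saline. The panel held Gad1 and Gad2, which encode the enzymes that make GABA from glutamate, Slc32a1, which encodes the vesicular transporter of GABA and glycine, Slc6a9, which encodes the glycine transporter GlyT1, the transcription factor genes Tfap2a, Tfap2b and Pax6, and Calb2, which encodes the calcium-binding protein calretinin. Members were the rows of the deposited count table whose Ensembl identifiers carry these symbols: Gad1 ENSMUSG00000070880, Gad2 ENSMUSG00000026787, Slc6a9 ENSMUSG00000028542, Slc32a1 ENSMUSG00000037771, Tfap2a ENSMUSG00000021359, Tfap2b ENSMUSG00000025927, Pax6 ENSMUSG00000027168 and Calb2 ENSMUSG00000003657. All 8 were found among 57186 rows, and all 8 were among the 11499 genes with enough counts to be tested.

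Most amacrine cells release GABA or glycine. GABA is made by glutamate decarboxylase, glycine is taken up from outside the cell, and a shared vesicular transporter loads both into synaptic vesicles. AP-2 factors, of which Tfap2a and Tfap2b encode 2 members, and Pax6 are known for their roles in forming and keeping amacrine identity. The panel is not exclusive to amacrine cells. As examples, Pax6 is also expressed in ganglion cells, horizontal cells and Müller glia, and calretinin also marks ganglion cells. Which cells the counts of any member came from was not measured here.

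The groups were PBS, eyes injected into the vitreous with 1 µL of phosphate-buffered saline, and CNP, eyes injected with 1 µL of hg-C3N4 nanoparticles at 1 mg/mL in the same saline. All mice were female C57BL6/JRj, and neuroretinas were taken at day 14. Each group held 5 libraries, numbered 2, 6, 10, 14 and 18 in PBS and 4, 8, 12, 16 and 20 in CNP. The design text counts mice for CNP and eyes for PBS, and the labels do not otherwise tie a library to an animal, so p-values measure the spread between these libraries, which may in part be technical. The labels give no age for the mice, and uninjected eyes were not analysed here.

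Total counts ran from 3328518 to 5428697 per library. In a library, 3 counts, the upper limit that a count of 0 allows, corresponded to 0.553 to 0.901 CPM by library totals alone. CPM are counts scaled to a library of 1000000, elsewhere with library sizes adjusted by TMM unless said otherwise. Totals were 4325794 to 5428697 in the 5 libraries numbered up to 10 and 3328518 to 4337612 in the 5 numbered above 10. Summed CPM of the 8 genes ran from 593 in PBS 14 to 1703 in PBS 2. Rod markers were abundant in every library of this tissue, labelled retina, at 64967 to 115672 summed CPM over 10 genes. Markers of tissues next to the neuroretina were present too: 10 lens genes summed to 208 to 8212 CPM and 10 pigment epithelium genes to 481 to 2507 CPM, and none of the genes in these lists was at 0 in all libraries. RNA was measured in whole tissue, so fewer cells of a type and less RNA per cell cannot be told apart.

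Upstream sequence is shown for 3 members, the pair of GABA-synthesis genes because their levels differed widely, and Pax6 because it was in the tightest pair across libraries. Promoter windows of 250 bases before the annotated start were taken from RefSeq on build GRCm38.p6, where 7 of the 8 members had entries with 11 windows in all. Calb2 was not among them. Since 2 members encode AP-2 factors, the windows were searched for the AP-2 motif GCCNNNGGC, which reads the same on both strands. Capitals mark each match.
Gad1, chr2:70561879-70562128, plus strand: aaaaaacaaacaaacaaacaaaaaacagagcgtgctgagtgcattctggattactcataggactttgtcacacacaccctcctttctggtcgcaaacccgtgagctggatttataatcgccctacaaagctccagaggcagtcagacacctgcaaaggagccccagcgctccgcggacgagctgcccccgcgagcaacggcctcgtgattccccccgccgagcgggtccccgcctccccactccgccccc
Gad2, chr2:22622077-22622326, plus strand: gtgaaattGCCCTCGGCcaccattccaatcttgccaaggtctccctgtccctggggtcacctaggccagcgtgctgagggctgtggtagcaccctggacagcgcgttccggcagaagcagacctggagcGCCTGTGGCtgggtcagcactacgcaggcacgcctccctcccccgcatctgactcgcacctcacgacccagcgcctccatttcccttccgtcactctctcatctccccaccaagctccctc
Pax6, chr2:105668646-105668895, plus strand: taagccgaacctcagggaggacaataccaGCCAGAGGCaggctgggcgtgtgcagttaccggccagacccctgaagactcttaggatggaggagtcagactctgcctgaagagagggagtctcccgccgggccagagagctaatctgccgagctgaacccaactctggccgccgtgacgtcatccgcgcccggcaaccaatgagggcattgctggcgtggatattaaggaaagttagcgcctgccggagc

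Gad2 held 2 matches, starting 242 and 121 bases before the annotated start. The upstream Pax6 window held 1, starting 221 bases before it. The other 9 member windows, that of Gad1 included, held none. Among all 32851 windows of this length, 13.7% held the motif. GC content was 58.0% in the Gad1 window, 64.0% in the Gad2 window and 60.8% in the upstream Pax6 window. The median was 52.4% over all windows. The other Pax6 window, not shown, had 47.6%, and the 11 member windows ran from 46.4% (Tfap2b) to 64.0% (Gad2). A match describes these letters and not a bound site, and binding was not measured in these data.

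Levels differed widely between members. Divided by the length of the longest protein-coding transcript in GENCODE M21, Calb2 averaged 419 ± 130.1 CPM per kb (SD over 10 libraries), Gad1 43.0 ± 16.7 and Slc6a9 42.2 ± 17.3. Pax6 followed at 29.5 ± 8.56, Slc32a1 at 14.0 ± 6.28, Tfap2a at 8.87 ± 3.97, Tfap2b at 5.60 ± 2.48 and Gad2 at 0.978 ± 0.369 CPM per kb. Neighbours in this order held it in all 10 libraries, except Gad1 and Slc6a9, whose order was Gad1 above Slc6a9 in 4 of 10. Whether counts in these UMI-primed libraries grow with transcript length was not tested. In CPM without that division, Slc6a9 (147) stood just above Gad1 (144) and Tfap2b (32.9) just above Tfap2a (30.9). The place of Tfap2a above Tfap2b thus came from the division by length, 3487 against 5863 bases.

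Gad1, the gene of the GAD67 enzyme, measured 228 CPM in PBS 2, 229 in PBS 6, 133 in PBS 10, 72.2 in PBS 14 and 95 in PBS 18. In CNP it measured 182 in library 4, 174 in library 8, 102.1 in library 12, 107 in library 16 and 119 in library 20. The PBS libraries thus held both the highest and the lowest values, and the groups overlapped. Mean levels were 152 ± 73.8 for PBS and 137 ± 38.4 for CNP (SD, 5 libraries each), with a log2 fold change, CNP over PBS, of -0.15 (SE 0.30, 95% interval -0.81 to 0.51).

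Gad2, the gene of the GAD65 enzyme, was scarce, with 268 counts over all libraries. PBS libraries 2, 6, 10, 14 and 18 held 7.25, 9.52, 5.46, 2.42 and 3.90 CPM, and CNP libraries 4, 8, 12, 16 and 20 held 5.48, 7.84, 3.61, 5.00 and 5.72. The lowest value rested on 8 counts in PBS 14, with an exact Poisson 95% interval of 1.04 to 4.76 CPM, and the highest on 55 counts in PBS 6, with 7.17 to 12.4 CPM (counting error only). Every CNP value lay inside the PBS range. The log2 fold change was -0.10 (SE 0.31, 95% interval -0.77 to 0.58).

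Slc32a1, the vesicular transporter gene used by GABA and glycine neurons alike, measured 70.1, 56.8, 40.4, 16.6 and 28.6 CPM in PBS libraries 2, 6, 10, 14 and 18. In CNP libraries 4, 8, 12, 16 and 20 it measured 53.9, 49.4, 26.2, 27.1 and 23.4 CPM. Its highest and lowest libraries were both PBS, and its log2 fold change was -0.25 (SE 0.35, 95% interval -0.998 to 0.50).

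Slc6a9, the glycine transporter gene of glycinergic amacrine cells, measured 243, 246, 134, 77.9 and 105 CPM in the PBS libraries in the same order. The CNP libraries held 162, 184, 108, 99.1 and 108 CPM. PBS 2 and PBS 6 stood above every CNP library, and PBS 14 below every one. The log2 fold change was -0.29 (SE 0.30, 95% interval -0.94 to 0.37).

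Tfap2a measured 53.4, 53.7, 33.0, 17.8 and 17.9 CPM in PBS libraries 2, 6, 10, 14 and 18, and 34.7, 36.6, 22.0, 19.5 and 20.9 CPM in CNP libraries 4, 8, 12, 16 and 20. All 5 CNP values lay between the low PBS pair, 14 and 18, and the high pair, 2 and 6. Its log2 fold change of -0.41 (SE 0.32, 95% interval -1.11 to 0.28) was the furthest from 0 in the panel.

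Tfap2b, the companion AP-2 gene, measured 56.8, 51.2, 33.0, 14.8 and 19.5 CPM in PBS and 42.0, 42.0, 26.5, 19.8 and 22.9 CPM in CNP, in the same orders. The pattern over libraries was that of Tfap2a, with PBS 2 and 6 high and PBS 14 and 18 low. The log2 fold change was -0.21 (SE 0.34, 95% interval -0.96 to 0.53).

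Pax6, a homeobox gene of eye development kept on in the inner retina, measured 190.3, 182, 126, 75.8 and 104.4 CPM in PBS and 152, 157, 106, 106 and 106 CPM in CNP. CNP libraries 12, 16 and 20 were nearly level with each other and with PBS 18. The log2 fold change was -0.12 (SE 0.23, 95% interval -0.62 to 0.38).

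Calb2 measured 854, 758, 598, 315 and 455 CPM in PBS and 871, 663, 438, 573 and 472 CPM in CNP. It was the member with group means closest to each other, at 596 ± 219 for PBS against 603 ± 174 for CNP (SD, 5 libraries each). Here CNP 4 was the highest library. The log2 fold change was 0.02 (SE 0.26, 95% interval -0.54 to 0.58), and -0.02 with libraries scaled by totals only.

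**Figure D1:**
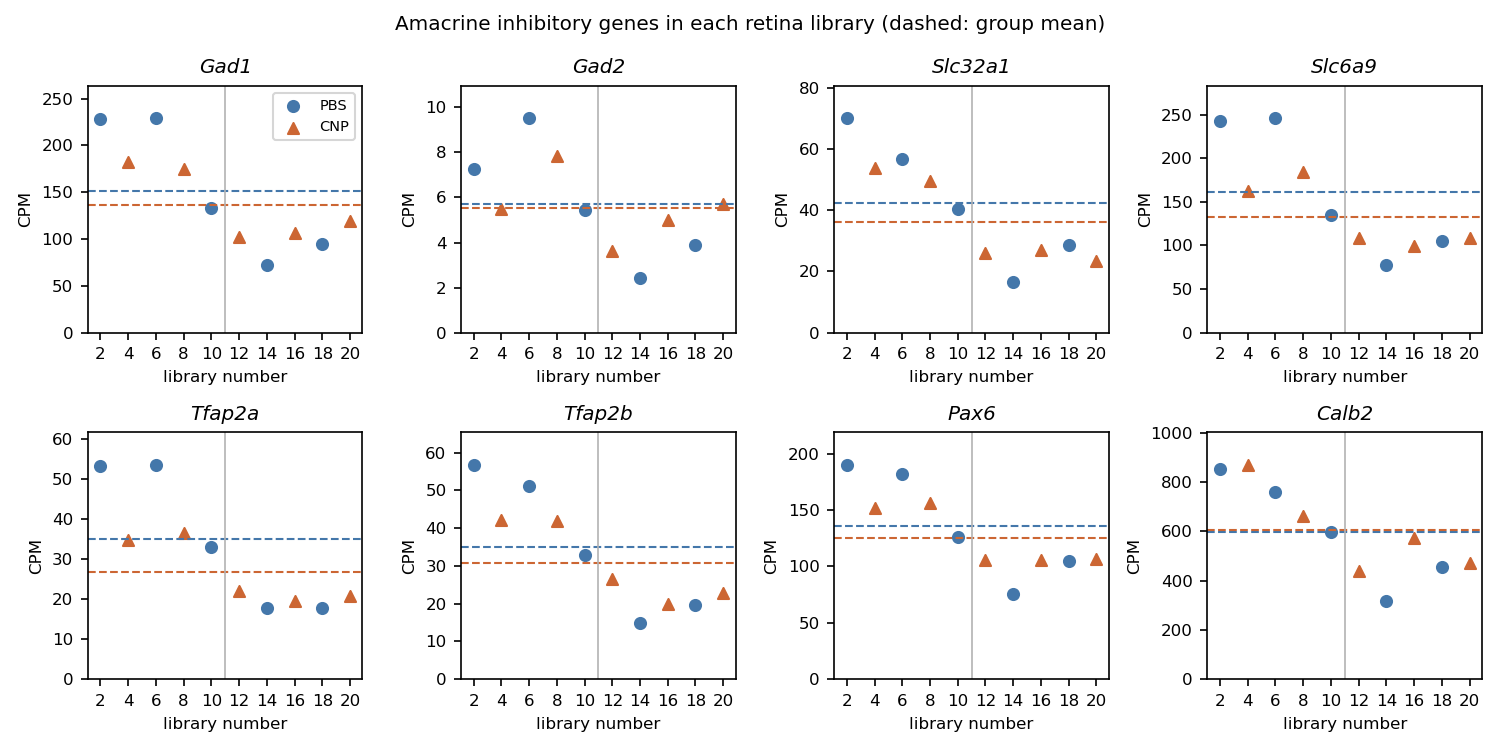
CPM (y axis, from 0) of each of the 8 genes against the library number in the labels (x axis), with PBS as circles, CNP as triangles and group means as dashed lines. The grey line separates libraries numbered up to 10 from those above, and PBS 14 is the lowest library for all 8 genes.

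None of the 8 genes passed the test between CNP and PBS. With edgeR's quasi-likelihood test 0 of 8 passed an adjusted p under 0.05 (each adjusted p = 0.9997), against 0% of 11499 genes tested. At an unadjusted p under 0.05 there were 0 of 8, against 1.19% of all genes, and the smallest was 0.22 for Tfap2a. DESeq2 and limma-voom also called 0 members, with 0 at an unadjusted p under 0.05 in each. Over all genes each tool called 0 as well, with 137 genes at an unadjusted p under 0.05 in edgeR, 146 in DESeq2 and 142 in limma-voom. No member had groups that did not overlap, against 0.287% of all genes. Fold changes were negative for 7 of 8, with a median of -0.18 on the log2 scale, against 51.2% negative and a median of -0.0036 over all genes tested. The 95% interval lay within a 2-fold change in either direction for 7 of 8 genes, the exception being Tfap2a, against 94.2% of all genes. It lay within 1.5-fold for 1 of 8, Calb2, against 65.3% of all genes. Of 8 lens genes tested, 0 were called and 0 had an unadjusted p under 0.05, with a median log2 fold change of -1.34. Their summed level ran from 208 in PBS 2 to 8212 CPM in PBS 10 and from 270.0 to 3850 CPM in CNP, and its part in the panel's values was not tested.

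The spread within groups followed the library number. All 8 genes were lower in the libraries numbered above 10 than in those up to 10, in a model with group and number set together (edgeR quasi-likelihood test, adjusted p = 0.00041 to 0.027, log2 differences from -1.15 to -0.71). Of all 11499 genes, 31.0% were called in that comparison and 16.7% were called lower. Those called lower were 1917 genes, the 8 of the panel included, so a lower level in the later numbers was not particular to the panel. The median difference was -0.96 for the panel and -0.02 for all genes tested. The labels do not say what the numbers stand for, and the division at 10 was taken over from earlier work on these same libraries, so this is a description of these libraries rather than independent evidence.

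The size of that difference was largest for Slc32a1, at -1.15 (SE 0.16), from 54.1 ± 10.9 CPM in libraries up to 10 to 24.4 ± 4.75 above (SD, n = 5 each). Tfap2b had -1.14 (SE 0.17) and Tfap2a -1.07 (SE 0.16). Gad1 had -0.97 (SE 0.16), from 189 ± 40.6 to 99.0 ± 17.4 CPM, and Slc6a9 -0.95 (SE 0.16), from 194 ± 49.4 to 99.6 ± 12.7 CPM. Calb2 and Gad2 both had -0.78, with SE 0.14 and 0.25, and Pax6 had -0.71 (SE 0.13). For 7 of the 8 genes the 2 sets of libraries did not overlap, against 10.8% of all genes that were lower without overlap. The exception was Gad2, where CNP 20, at 5.72 CPM, exceeded PBS 10, at 5.46, and CNP 4, at 5.48.

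Each set held both treatments, with 3 PBS and 2 CNP libraries up to 10 and 2 PBS and 3 CNP above. Among libraries up to 10, mean log2 CPM was lower in CNP for 7 genes, from -0.35 for Tfap2a to -0.07 for Slc32a1, and higher for Calb2, at 0.06. Among those above 10 it was higher in CNP for all 8, from 0.21 for Tfap2a to 0.54 for Gad2. The difference between the sets was tested as an interaction in edgeR, and 0 of 8 genes passed (adjusted p = 0.9989 for each, unadjusted p from 0.0498 for Tfap2a to 0.379 for Slc32a1), against 0% of all genes. With the number set as a covariate, the CNP over PBS log2 fold change was 0.11 for Gad1, 0.08 for Gad2, 0.01 for Slc32a1, 0.06 for Tfap2b, 0.06 for Pax6 and 0.21 for Calb2. It was -0.04 for Slc6a9 and -0.15 for Tfap2a. Thus 6 of 8 were positive, where 1 of 8 was positive without the covariate, and 0 passed in either fit. With the covariate the median was 0.06 for the panel and 0.0030 for all genes tested. The share of signs over all genes was not computed within sets or with the covariate. As the 8 genes varied together over libraries, their signs are not 8 separate observations. Intervals narrowed: that of Gad1 ran from -0.22 to 0.44 and that of Pax6 from -0.21 to 0.32.

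**Figure D2:**
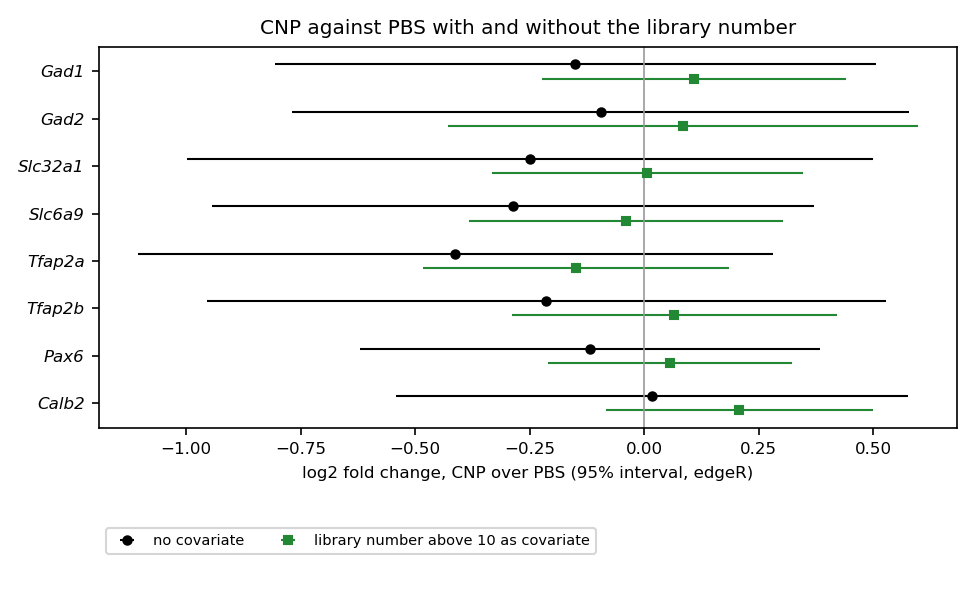
Log2 fold change of CNP over PBS (x axis) for each gene, with its 95% interval, from edgeR without a covariate (circles) and with library number above 10 as a covariate (squares). All intervals contain 0, and 5 genes lie on opposite sides of 0 in the fits.

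Markers of other cells moved with the same numbers. Of 10 rod genes tested, 8 were higher above 10 and 0 lower, and of 7 pigment epithelium genes tested all 7 were higher, against 14.4% of all genes called higher and 16.7% called lower. The summed pigment epithelium genes ran from 481 to 1280 CPM up to 10 and from 1462 to 2507 above, and the summed rod genes from 64967 to 77032 and from 77788 to 115672. Other inner retinal lists were on the side of the panel: 8 of 9 ganglion cell genes, 7 of 9 bipolar cell genes, 5 of 10 Müller glia genes and 1 of 2 horizontal cell genes were lower above 10, and 0 were higher. Of 9 microglia genes, 1 was lower and 0 higher. These counts stand against the same 16.7% lower and 14.4% higher of all genes. Median log2 differences were -0.76 for ganglion, -0.51 for bipolar and -0.34 for Müller glia genes, against -0.96 for the panel, and the differences between lists were not tested. Lens genes had a median of -1.04 with 0 of 8 called. The part of pigment epithelium, rod share or depth in the panel's values was not tested. By treatment, summed pigment epithelium genes ran from 481 to 2436 CPM in PBS and from 929 to 2507 in CNP.

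**Figure D3:**
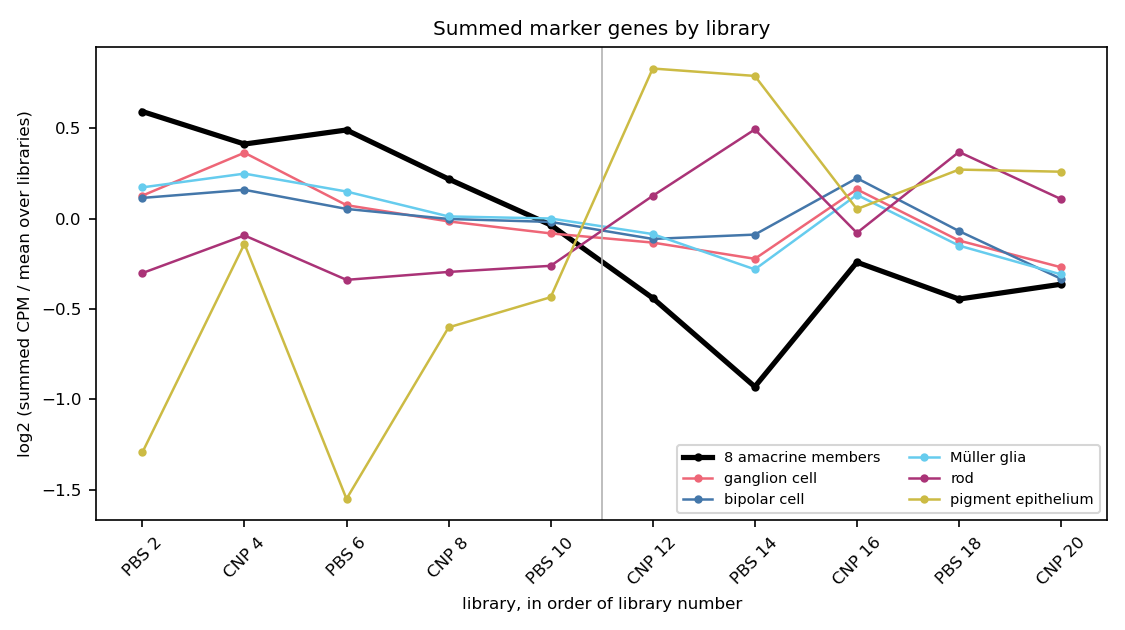
Summed CPM of each marker list divided by its mean over the 10 libraries, on a log2 scale (y axis), for libraries in order of their number (x axis). The 8 amacrine genes (thick line) are highest in PBS 2 and lowest in PBS 14, where summed rod genes are at their highest, 115672 CPM.

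The 8 genes varied together over the 10 libraries. Pearson's r of log2 CPM was 0.83 to 0.99 for the 28 pairs, with a median of 0.95, and Spearman's rho 0.73 to 0.98. All 28 passed an adjusted p under 0.05 in a two-sided permutation test (100000 resamples, adjusted p = 6.22e-05 to 0.00292 for r, and at most 0.0198 for rho). Among the 15935835 pairs of 5646 genes at 20 CPM or more, the median r was 0.0018, and 4.82% of pairs reached the lowest r of the panel. Points in these relations share the library, its depth and its mixture of cells.

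The tightest pair was Gad1 and Pax6, with r = 0.989 and rho = 0.964 (permutation p = 3e-05 and 7e-05 over 10 libraries, adjusted p = 7.64e-05 and 0.00032 over 28 pairs). Without PBS 2 and PBS 6, the libraries farthest from the Gad1 median, r was 0.978. The loosest was Gad2 and Slc32a1, with r = 0.828 and rho = 0.733 (permutation p = 0.00287 and 0.0198, adjusted p = 0.00292 and 0.0198), and r = 0.695 without PBS 14 and PBS 6. Over all pairs, r without the 2 farthest libraries was 0.69 to 0.98.

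Part of this common variation was the difference between the number sets. After the mean of each set was removed, r was 0.39 to 0.95 with a median of 0.81, and 20 of 28 pairs passed (permutation within sets, adjusted over 28 pairs). The share over pairs of other genes was not computed after this removal, so these counts describe the panel without a background. With 5 libraries in each set, no correlation was computed within a set. Pax6 and Gad1 kept all 7 of their pairs and Slc6a9 6 of 7. The 8 pairs that no longer passed each held Gad2 or Calb2, apart from Slc32a1 with Tfap2a (r = 0.60, permutation p = 0.0655, adjusted p = 0.0873). The lowest was Tfap2a with Calb2, at r = 0.39 (permutation p = 0.234, also 0.234 adjusted).

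**Figure D4:**
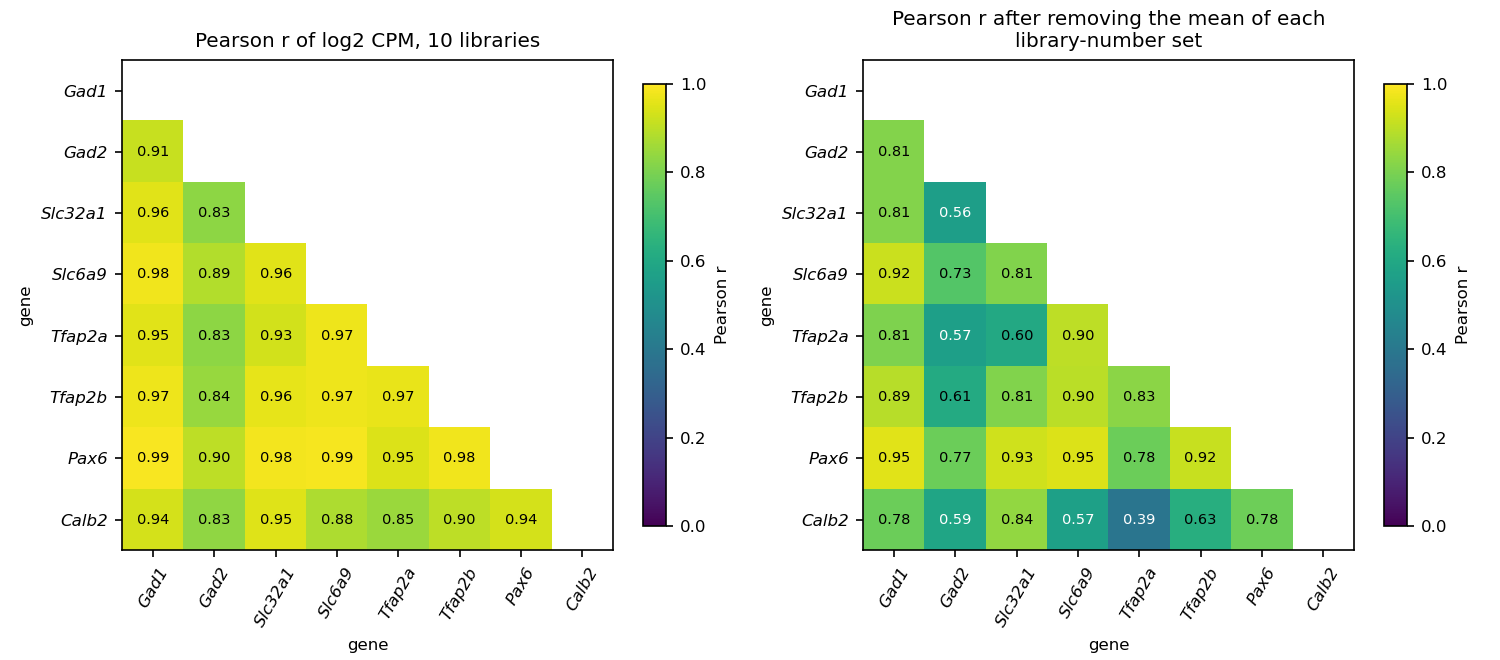
Pearson r for each of the 28 pairs of genes over 10 libraries, from log2 CPM (left) and after removing the mean of libraries numbered up to 10 and above 10 (right), on a colour scale from 0 to 1. The column of Gad2 and the row of Calb2 hold most of the low values on the right, down to 0.39 for Tfap2a with Calb2.

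Likeness to other genes was read as Pearson's r of log2 CPM over the 10 libraries, among genes at 20 CPM or more, as a description. Among the genes most like Gad1 was Nptx1, a secreted synaptic pentraxin gene (r = 0.991). Pax6 was most like Nptx1 (r = 0.992) and Ywhag (r = 0.991). Slc32a1 was most like C1ql2 and H2afy2 (r = 0.988 each), and Slc6a9 like Gprasp1 and Amigo2 (r = 0.989 each). Tfap2b shared Amigo2 (r = 0.987), followed by Gas1 (0.982). For Tfap2a the nearest were Gm37583 (0.982) and the synaptic vesicle gene Sv2a (0.978), for Calb2 the vesicle-binding gene Rph3a (0.992) and Nap1l5 (0.989), and for Gad2 the RNA-binding gene Celf3 (0.967) and Slc25a44 (0.966). Such values were common here: 432 of 5645 other genes had r above 0.9 with Gad1, 436 with Pax6 and 112 with Gad2.

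Ratios of genes with paired roles do not depend on how a library is scaled. The ratio of Gad1 to Gad2 counts was 31.2, 23.9, 23.9, 28.2 and 23.4 in PBS libraries 2, 6, 10, 14 and 18 and 32.7, 22.0, 27.2, 20.9 and 20.4 in CNP libraries 4, 8, 12, 16 and 20. The ratio spread over 1.601-fold, while Gad1 alone spread over 3.18-fold and Gad2 over 3.94-fold. The log2 ratio differed by -0.10 between CNP and PBS (exact permutation p = 0.532, two-sided, 0.798 adjusted over 3 ratios).

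The ratio of Slc6a9 to Slc32a1, the glycine uptake gene against the vesicular gene of both transmitters, was 3.46, 4.33, 3.32, 4.66 and 3.64 in PBS and 3.01, 3.73, 4.11, 3.64 and 4.62 in CNP, in the same orders. The groups covered nearly the same range, and the log2 difference was -0.03 (exact permutation p = 0.849, also 0.849 adjusted).

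The ratio of Tfap2a to Tfap2b was near 1 throughout, at 0.941, 1.05, 1, 1.202 and 0.917 in PBS and 0.826, 0.871, 0.831, 0.988 and 0.914 in CNP. It was lower in CNP by 0.20 on the log2 scale, with means of 0.02 ± 0.15 for PBS against -0.18 ± 0.11 for CNP (SD, 5 libraries each). The exact permutation p was 0.0317, where 0.00794 is the smallest possible, and 0.0952 adjusted over 3 ratios, so it did not pass. The difference was -0.23 among libraries up to 10 and -0.21 among those above, and the groups overlapped, with CNP 16 above PBS 2 and PBS 18.

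**Figure D5:**
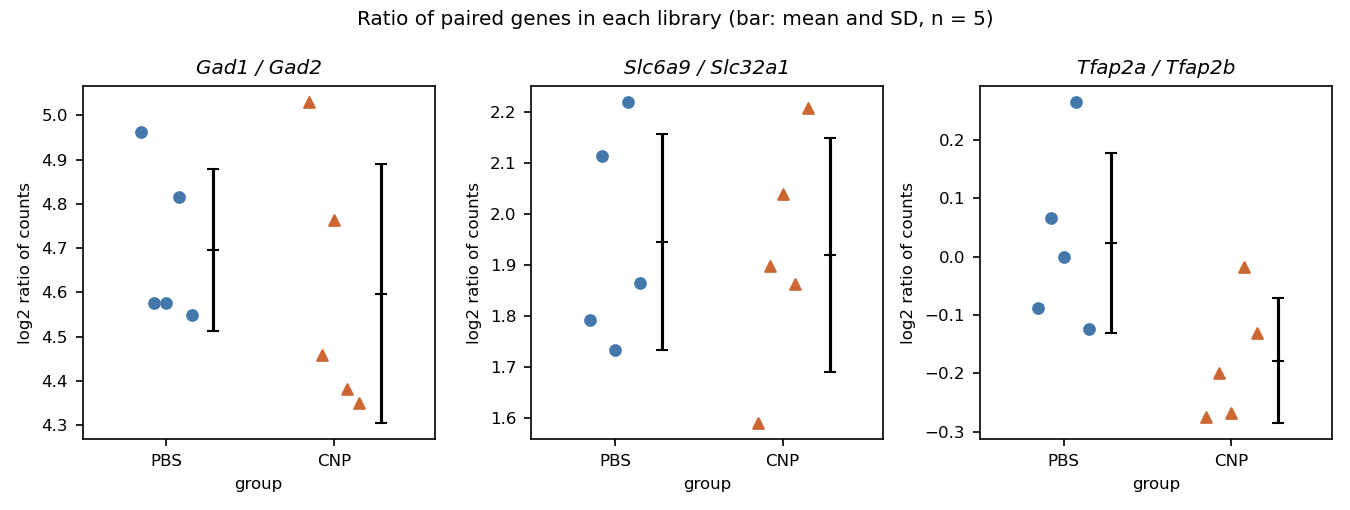
Log2 ratio of counts (y axis) of Gad1 to Gad2, Slc6a9 to Slc32a1 and Tfap2a to Tfap2b in each PBS and CNP library (points), with the mean and SD of each group (bars, n = 5). The y axes do not start at 0, and the groups overlap in all 3 panels.

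The rest of the inhibitory pathway was read from 20 other genes of GABA and glycine handling, of which 17 were tested. In CNP against PBS 0 rose and 0 fell by edgeR, against 0% of all genes called. At an unadjusted p under 0.05 there were 0, against 1.19% of all genes. Values were positive for 6 and negative for 11, against 51.2% negative over all genes, with a median log2 fold change of -0.13. Among the most abundant members were Slc38a3, a glutamine transporter gene of Müller glia (156 CPM, log2 fold change -0.09), Slc12a5, the neuronal chloride exporter KCC2 that sets the direction of GABA currents (141 CPM, -0.18), the glutamine transporter gene Slc38a1 (94.1 CPM, -0.36), Abat, which encodes the GABA-degrading transaminase (89.5 CPM, 0.0025), and Slc6a11, the GABA transporter GAT3 (32.5 CPM, -0.13). The neuronal glycine transporter gene Slc6a5 was not tested, with 25 counts in all.

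These pathway genes did not all share the panel's course over library numbers. By the number term 7 of 17 were lower above 10 and 1 was higher, against 16.7% and 14.4% of all genes, so a single higher gene among 17 is no more than the share over all genes. Slc38a1 had a log2 difference of -0.94 (SE 0.17), Slc6a11 -0.75, Slc12a5 -0.66 and Abat -0.54 (edgeR adjusted p = 0.00647 or less for each), whereas Slc38a3 had 0.08 (SE 0.07, adjusted p = 0.396). The gene that was higher, named after its value was seen, was Slc6a13, the GABA transporter GAT2, known from liver, kidney and meninges, at 1.08 (SE 0.28, adjusted p = 0.01005).

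Other amacrine transcription factor genes numbered 19, with 12 tested. None passed between CNP and PBS by edgeR, and 0 had an unadjusted p under 0.05, against 0% and 1.19% of all genes. Values were positive for 1 and negative for 11, against 51.2% negative over all genes, with a median of -0.12. The split of signs was not tested. The 4 most abundant were Meis2 (105 CPM, log2 fold change -0.07), Isl1, which also marks bipolar and ganglion cells (84.9 CPM, -0.08), Tcf4 (62.5 CPM, -0.02) and Ebf1 (48.1 CPM, -0.17). Above number 10, 8 of 12 were lower and 0 higher, against 16.7% and 14.4% of all genes. Isl1 had -0.87 (SE 0.12, adjusted p = 0.000433), while Meis2 had -0.10 (SE 0.09, adjusted p = 0.416) and spread by only 9.51% over the libraries (coefficient of variation), against 29.0% to 44.8% for the 8 panel genes.

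Genes of amacrine subtypes and co-transmitters numbered 26, with 21 tested. None passed between CNP and PBS by edgeR, and 0 had an unadjusted p under 0.05, against 0% and 1.19% of all genes. Values were positive for 7 and negative for 14, against 51.2% negative over all genes, with a median of -0.03. The 4 most abundant were the peptide gene Cartpt (219 CPM, log2 fold change -0.0022), Pvalb, which encodes parvalbumin (185 CPM, 0.22), Npy, which encodes neuropeptide Y (77.2 CPM, 0.04), and C1ql2 (61.9 CPM, -0.24). Above number 10, 13 of 21 were lower and 0 higher, against 16.7% and 14.4% of all genes. C1ql2 had -1.04 (SE 0.16) and Cartpt -0.49 (SE 0.11), whereas Pvalb had -0.08 (SE 0.09, adjusted p = 0.525).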

How the data were processed

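Polyadenylated RNA of 10 mouse neuroretina libraries was reverse transcribed with primers carrying unique molecular identifiers (UMIs), per the labels' protocols. STAR, STARsolo and build GRCm39 appear in the submitters' processing notes. Tool versions, gene annotation, strand handling and UMI collapsing were not given in the sources used here. The authors deposited raw counts per Ensembl gene, 57186 rows. Symbols came from a table that matched 51880 of them. No pair of libraries within a group was a duplicate: chi-square per degree of freedom was 3.99 or more in 20 pairs.

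Counts were filtered with filterByExpr (minimum count 10, total 15), scaled by TMM and fitted in R 4.3.3 with edgeR 4.0.16 (quasi-likelihood test, two-sided). Benjamini-Hochberg adjustment ran over 11499 genes, with a threshold of 0.05. Log2 CPM used a prior count of 2. Ratios added 0.5 to each count. Scripts were tested on simulated data. Alternatives were DESeq2 1.42.0, limma-voom (limma 3.58.1), other scalings, no filter, library number above 10 as a covariate, and each library left out. The genes, the lists and the division at library number 10 were chosen with earlier results of these data known. Named were the 8 genes, the most abundant 6, 4 and 4 of the lists and the 2 nearest genes of each member, of which 1 gene is not reported here. Reads from a gene and its antisense partner cannot be told apart if strand was not used: Gad1os held 1 count and Pax6os1 598. Counting intervals cover counting error only.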

Additional observations from a re-analysis of the deposited data

How the results depend on the processing

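No member was called by any alternative run, and no gene was called over the whole table; the number of pairs of genes that varied together was 28 under other scalings, a prior count of 0.5, removal of group means and each library left out, and 20 after removal of the means of the number sets. The sign of CNP against PBS was less settled. With library number above 10 as a covariate it turned positive for Gad1 (0.109), Gad2 (0.0843), Slc32a1 (0.0063), Tfap2b (0.0649) and Pax6 (0.0557), and with library totals only Calb2 turned to -0.0203. Leaving out each library gave log2 fold changes of -0.33 to 0.05 for Gad1, -0.26 to 0.17 for Gad2, -0.44 to 0.00299 for Slc32a1, -0.40 to 0.02 for Tfap2b, -0.27 to 0.03 for Pax6 and -0.15 to 0.18 for Calb2. Without PBS 2 the values were 0.0441 for Gad1, 0.00299 for Slc32a1, 0.0249 for Tfap2b and 0.032 for Pax6, and without PBS 6 they were 0.0487 for Gad1, 0.1715 for Gad2 and 0.0112 for Pax6. Gad2 was 0.0094 without CNP 12. Calb2 was -0.146 without CNP 4, -0.0134 without CNP 8, -0.142 without PBS 14 and -0.0645 without PBS 18. Slc6a9 stayed negative, from -0.46 to -0.08, and Tfap2a, from -0.57 to -0.21, the ends being without PBS 14 and without PBS 6 in both. Adjusted p of the members' fold changes was 0.928 or more over all alternatives. For the log2 ratios the smallest adjusted p was 0.0714 (exact permutation test), for Tfap2a to Tfap2b without CNP 16. The log2 ratio of Slc6a9 to Slc32a1 ranged from -0.0974 to 0.057 with a library left out (0.057 without CNP 4, 0.0168 without PBS 6 and 0.0434 without PBS 14), that of Gad1 to Gad2 from -0.207 to -0.0325, and that of Tfap2a to Tfap2b from -0.242 to -0.141. The labels state no pairing of PBS with CNP libraries, so no paired analysis was run. Where a sign turned, the cause was not tested. Gad2, with 8 to 55 counts per library, is limited by depth.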

Other observations

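Among the 21 subtype and co-transmitter genes tested, 3 genes of rarer transmitter types were picked after their values were seen. Slc18a3, the vesicular acetylcholine transporter gene of starburst amacrine cells, had a log2 difference of -1.21 (SE 0.22, edgeR adjusted p = 0.00139) between libraries numbered above 10 and those up to 10, and Chat, the acetylcholine synthesis gene of the same cells, had -1.14 (SE 0.40, adjusted p = 0.0423). Chat held only 155 counts in all, and its lowest value, 0.604 CPM with TMM sizes, rested on very few counts. Slc5a7, also on the list, held 125 counts in all and was not tested. Th, the rate-limiting enzyme gene of dopaminergic amacrine cells, had -1.05 (SE 0.25, adjusted p = 0.00583). Of all genes tested, 16.7% were called lower in that comparison. Other genes of the list were not called: Penk had 0.33 (adjusted p = 0.587), Maf 0.04 (0.922), Crh -0.14 (0.728), Vip -0.38 (0.163) and Sst -0.55 (0.155), and the dopamine synthesis gene Ddc, with 83 counts in all, was not tested. Against treatment, CNP over PBS, the same genes had log2 fold changes of -0.15 for Slc18a3, -0.10 for Chat and -0.52 for Th, and none passed (edgeR adjusted p = 0.9997 for each).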
